A study of Mus musculus with 3 samples.

Results

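Of the 31040 genes in the deposited table of nuclear transcripts, 9 are described here because injured peripheral neurons are known to switch them on, or to rely on them, when they regrow an axon: Gap43, Vgf, Atf3, Stmn2, Jun, Sox11, Nrn1, Chl1 and Sprr1a. They were taken by symbol, with earlier results of these data known. Single-nucleus RNA-sequencing was done on lumbar cord from 12 mice, all 90 days old. Of these, 6 were SOD1G93A mice (B6.Cg-Tg(SOD1G93A)1Gur/J), which carry many copies of a mutant human SOD1 transgene in all cells and develop motor neuron disease, and 6 were C57BL/6J wild-type (WT) littermates without the transgene. Each genotype had 3 females and 3 males. Nuclei were isolated and tagged with hashing antibodies mouse by mouse, and those of 1 mouse of every sex and genotype were then pooled. The 4 mice of a pool (A, B or C) therefore share droplet capture and library, but not the isolation of nuclei. The transgenic mice are compared with WT mice of the same pools. Each hashtag marked the same sex and genotype in every pool, so hashtag and group cannot be told apart. No mouse received a treatment or a nerve injury, and the perfused, flash-frozen cord holds the cell bodies of motor neurons but not the peripheral part of their axons.

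When an axon is cut or degenerates, the neuron's nucleus is signalled through kinases of the DLK and JNK pathway and through retrograde transport. Transcription factors follow, among them Atf3, Jun and Sox11, and these switch on proteins of the growth cone, secreted peptides and adhesion molecules. In motor neurons and sensory neurons this response is known to be strong after peripheral nerve injury and weak or absent after injury within the central nervous system. Several of the 9 genes have other uses in healthy tissue, so that a level alone does not mark injury.

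The 14662 nuclei held 206486779 unique molecular identifiers (UMIs, each a captured RNA molecule), and 15 barcodes occurred in more than 1 pool. Motor neurons numbered 67 nuclei by the authors' label. WT mice gave 44 of them, between 4 and 11 per mouse, and SOD1G93A mice 23, between 1 and 6. The 3 SOD1G93A females of pools A, B and C contributed 2, 4 and 1 nuclei, so their values rest on few cells. Its main markers were present in both genotypes: Chat, the enzyme that makes acetylcholine, had 403 UMIs in WT and 203 in SOD1G93A motor neurons, the choline transporter Slc5a7 had 410 and 448, and Prph, a neurofilament of peripheral-projecting neurons, had 186 and 151, while Slc18a3 had none in either. Markers of motor neuron sub-types did not move together. Of the 5 alpha markers, in 2501423 WT and 1439691 SOD1G93A UMIs, Rbfox3 had 742 and 334 UMIs, Chodl 330 and 82, Vipr2 137 and 41, Mmp9 8 and 6, and Spp1 94 and 263. Their summed level had medians of 485 CPM in WT (444 to 742) and 451 CPM in SOD1G93A mice (349 to 1113). The 5 gamma markers had 1015 CPM (425 to 1400) and 1159 CPM (904 to 1479). The 3 visceral markers, mostly Zeb2 (193 and 209 UMIs), had 60.1 CPM (30.7 to 247) and 142 CPM (8.58 to 459). Their part in the results below was not tested. Levels below are in CPM, the UMIs of a gene per 1000000 UMIs of a cell type in a mouse, and are compared between types or mice but not between genes, since they are not set per length. The summed level of 4 oligodendrocyte markers in motor neurons had a median of 205 CPM in WT mice (60.1 to 820) and of 514 CPM in SOD1G93A mice (85.8 to 609), and its part in the results below was not tested. Apart from the Schwann and meningeal label described further on, 2 labels went against their markers in both genotypes: nuclei labelled microglia had a WT median of 88.4 CPM of microglia markers against 4198 CPM of neuron markers and 2930 CPM of oligodendrocyte markers, and nuclei labelled fibroblast 214 CPM of fibroblast markers against 978 CPM of neuron markers. They are named by label only. Nuclei labelled ependymal had 2111 CPM of ependymal markers and 1240 CPM of oligodendrocyte markers in WT mice, but 2080 and 2217 CPM in SOD1G93A mice. As a check of the genotype, Sod1 was higher in SOD1G93A motor neurons by 3.85 on the log2 scale (SE 0.323, adjusted p = 5.4e-07 in limma).

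RefSeq promoter sequence (GRCm38.p6) was at hand for 5 of the 9 genes. The 250 bases before the transcription start are shown, 5′ to 3′ on the coding strand, for the pair of genes whose highest counts lay in a few SOD1G93A nuclei, Sprr1a and Atf3. Capitals mark the AP-1 motif TGANTCA, the sequence that dimers of Jun with Fos proteins bind, searched on both strands. The Sprr1a window is chr3:92485882-92486131 on the minus strand and the Atf3 window is chr1:191183334-191183583 on the minus strand.
Sprr1a: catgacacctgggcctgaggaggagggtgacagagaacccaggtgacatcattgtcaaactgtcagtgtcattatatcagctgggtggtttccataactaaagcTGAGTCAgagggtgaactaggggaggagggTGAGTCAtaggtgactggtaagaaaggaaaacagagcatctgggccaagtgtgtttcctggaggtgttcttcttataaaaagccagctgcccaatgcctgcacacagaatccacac
Atf3: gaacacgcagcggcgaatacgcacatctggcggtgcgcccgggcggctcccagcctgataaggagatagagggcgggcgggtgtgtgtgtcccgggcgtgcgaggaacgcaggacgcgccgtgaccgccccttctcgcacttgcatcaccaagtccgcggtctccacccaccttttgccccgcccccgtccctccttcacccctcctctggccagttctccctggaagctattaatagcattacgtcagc

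The Sprr1a promoter held 2 matches, starting 146 and 116 bases before the start site, and the windows of Atf3, Jun, Chl1 and Sox11 held none. The annotated Atf3 gene reaches upstream of its window, to position 191218039, and any start site there was not searched. Among all 32851 promoter windows, of 300 bases each, 7.81% held the motif at least once. The cAMP response element TGACGTCA, which 1.79% of the windows held, occurred in none of the 5. Only exact matches were counted, so variants of either motif were not searched. A match is a description of the letters, not a bound site.

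In motor neurons of SOD1G93A mice, 3 of the 5 members that could be tested rose: Gap43, Vgf and Sox11. Atf3 and Jun, the transcription factors of the response, were too sparse for the test, with 1 Atf3 UMI in WT and 57 in SOD1G93A motor neurons and 17 and 65 Jun UMIs. Stmn2 and Chl1 were tested and not called. Among all 5118 genes tested in motor neurons, 1.43% were called higher and 3.07% in either direction, at an adjusted p under 0.1 with limma's voom over sums per mouse and the pool as a term. The filter asked for about 34.6 CPM in at least 3 mice, which no WT mouse reached for Gap43, Vgf or Sox11, so these genes entered the test only through SOD1G93A mice and the count of 3 among 5 is no support by itself. In a fit with no filter, where 1.18% of 19784 genes were called higher, Gap43 (2.38, adjusted p = 6.98e-05), Vgf (2.85, adjusted p = 5.8e-10) and Sox11 (1.31, adjusted p = 0.0349) were called as well. The p values of that fit rest on a spread shared over genes, so they do not measure the spread of these genes between mice. The counts of all 9 members are plotted by mouse.

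**Figure D1:**
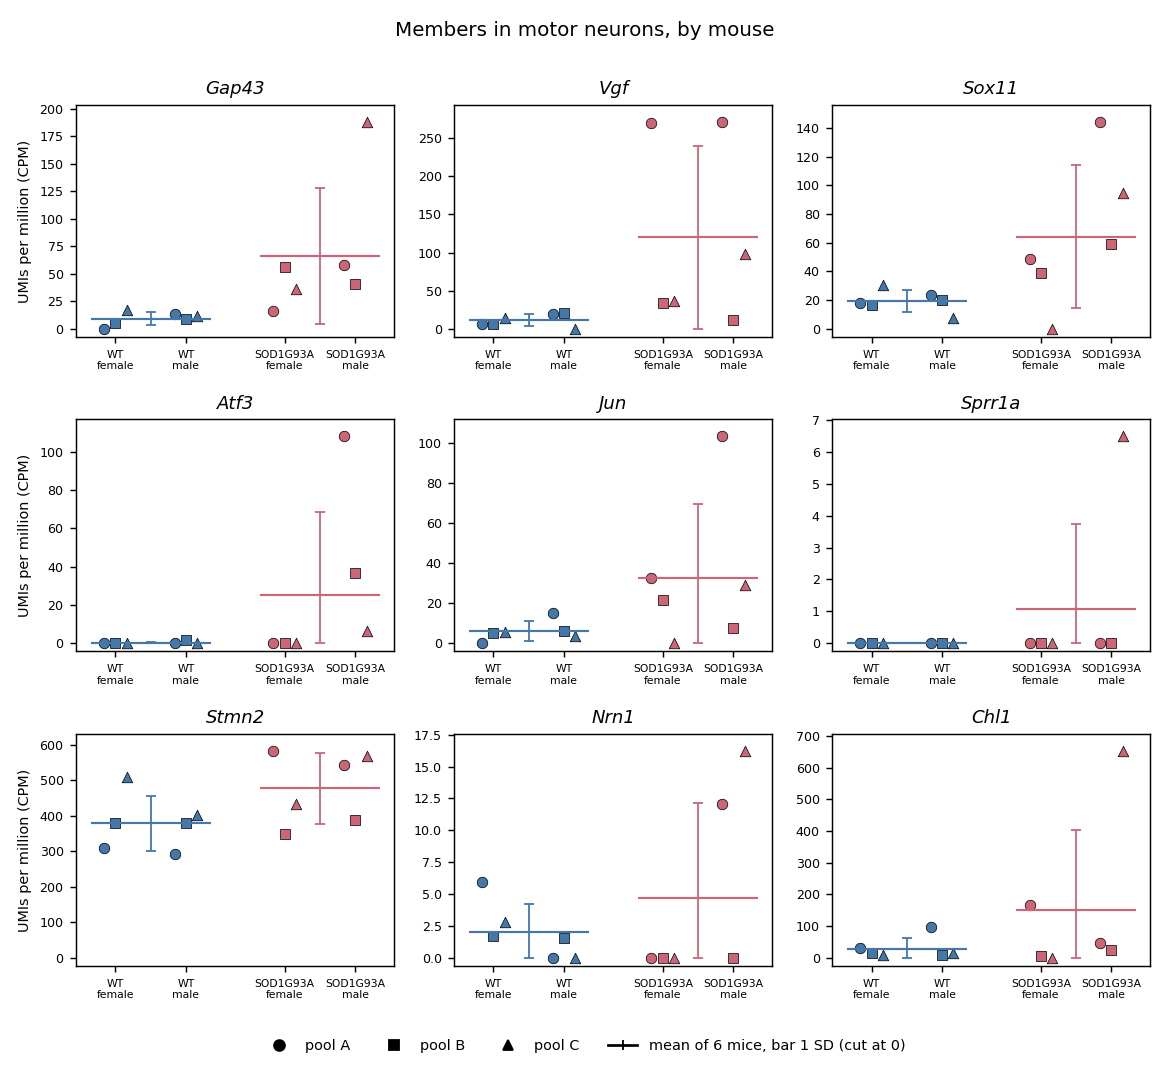
CPM in motor neurons for each of the 9 genes, 1 point per mouse with the shape giving the pool, and lines with bars giving the mean and 1 SD, cut at 0, of 6 mice per genotype. Gap43 is higher in the SOD1G93A mouse in 6 of 6 pairs matched for sex and pool, and Atf3 is highest in the 3 SOD1G93A males. How many of all motor neuron genes do the same was not counted, so these patterns are no support by themselves.

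Among the transcription factors, Atf3, which healthy neurons barely express, was at 0 in 5 of 6 WT mice and at 1.54 CPM in the male of pool B. In SOD1G93A mice it was at 0 in all 3 females and at 108, 36.9 and 6.50 CPM in the males of pools A, B and C, from 45, 10 and 2 UMIs. Over all nuclei the SOD1G93A to WT ratio of the level was 99.0 (exact 95% interval 17.1 to 3979, which covers counting error between these pooled libraries only), and without the male of pool A, which held 45 of the 57 UMIs, it was 29.3 (4.34 to 1253). Both ratios rest on 1 WT UMI, under the floor of 3 counts used here, so only their intervals are read. The 7 motor neuron nuclei of the females held 445901 UMIs, in which no Atf3 UMI still allows up to 6.73 CPM, so a level like that of the male of pool C would not have been detectable in them.

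Jun, the AP-1 subunit that JNK activates, had 17 UMIs in WT and 65 in SOD1G93A motor neurons, a ratio of 6.64 (exact 95% interval 3.85 to 12.1, counting error only). Without the SOD1G93A male of pool A, which held 43 of the 65, the ratio was 3.16 (1.60 to 6.34). It lay at 0, 5.04 and 5.58 CPM in the WT females of pools A, B and C and at 15.2, 6.14 and 3.76 CPM in the WT males. In SOD1G93A females it was at 32.4, 21.4 and 0 CPM, and in SOD1G93A males at 104, 7.38 and 29.3 CPM. The SOD1G93A mouse was the higher in 5 of 6 pairs matched for sex and pool, and the ranges overlapped. Such pairs were not counted over all motor neuron genes, so they are no support by themselves. Neither gene passed the filter on low counts. With no filter, limma called Atf3 (log2 fold change 2.70, adjusted p = 0.00035) and Jun (1.85, adjusted p = 0.0124) higher. In that fit the median over all genes was itself 0.31 rather than 0.00, so its fold changes are read against that shift. Its p values rest on a spread shared over genes, while most Atf3 and Jun UMIs came from the SOD1G93A male of pool A.

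Sox11, a transcription factor of growing and regrowing neurons, rose by 1.45 on the log2 scale (SE 0.312, adjusted p = 0.0294). WT females had 17.8, 16.8 and 30.7 CPM in pools A, B and C, and WT males 23.8, 20.0 and 7.52 CPM. SOD1G93A females had 48.6, 38.6 and 0 CPM, the last from the mouse with 1 nucleus, and SOD1G93A males had 144, 59.1 and 94.3 CPM. The genotypes overlapped, at 7.52 to 30.7 CPM in WT and 0 to 144 CPM in SOD1G93A mice. With nuclei thinned to 10000 UMIs and no filter Sox11 was not called (0.85, adjusted p = 0.226).

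Gap43, a membrane protein of the growth cone and the classical marker of axon growth, rose by 2.66 on the log2 scale (SE 0.489, adjusted p = 0.00937). It was at 0, 5.04 and 16.7 CPM in WT females and at 13.0, 9.21 and 11.3 CPM in WT males. SOD1G93A females had 16.2, 55.7 and 36.2 CPM and SOD1G93A males 57.8, 40.6 and 189 CPM. The genotypes overlapped only by the SOD1G93A female of pool A, which lay just under the highest WT mouse.

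Stmn2, a tubulin-binding protein needed to keep and regrow motor axons, did not pass the test, with a log2 fold change of 0.22 (SE 0.180, adjusted p = 0.597), which was -0.11 without the nuclei over 1% mitochondrial UMIs described further on. Its levels ran from 292 to 508 CPM in WT and from 347 to 584 CPM in SOD1G93A mice, with medians of 379.5 and 488 CPM, and every motor neuron nucleus had at least 1 UMI of it. Nrn1, a membrane-anchored protein that promotes neurite growth, was almost absent from motor neurons, with 4 UMIs in WT and 10 in SOD1G93A.

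Vgf, the precursor of secreted peptides that neurotrophins and activity induce, had the largest fold change of the members tested, 3.12 on the log2 scale (SE 0.544, adjusted p = 0.00946). WT females were at 5.93, 6.72 and 14.0 CPM and WT males at 19.5, 20.0 and 0 CPM. SOD1G93A females reached 270.2, 34.3 and 36.2 CPM, and SOD1G93A males 272, 11.1 and 97.5 CPM. The male of pool B, at 11.1 CPM, lay within the WT range and was the only SOD1G93A mouse below its WT counterpart.

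Chl1, an adhesion molecule of the L1 family, had a log2 fold change of 1.90 that did not pass the test (SE 1.09, adjusted p = 0.471). Most of its UMIs came from 1 mouse per genotype, with 654 CPM in the SOD1G93A male of pool C and 97.4 CPM in the WT male of pool A, against medians of 35.8 and 14.2 CPM. It was called without the SOD1G93A male of pool A (2.63, adjusted p = 0.0186) and with nuclei thinned to 10000 UMIs and no filter (1.44, adjusted p = 0.0689), a fit in which the median over all genes was 0.46 and 83.7% of the 2435 calls were higher. Its fold change was 0.60 without the SOD1G93A female of pool A and 0.38 without the male of pool C. Sprr1a, a small proline-rich protein of the skin barrier that injured neurons also make, had 0 UMIs in WT and 2 in SOD1G93A motor neurons, both under the 3 counts taken as the floor.

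The 3 calls in motor neurons depended on how pools and nuclei were treated. Without the pool term, adjusted p was 0.106 for Gap43, 0.379 for Vgf and 0.0996 for Sox11, and the number of genes called in motor neurons fell from 157 to 40. Without the SOD1G93A female of pool B, Gap43 (2.02, adjusted p = 0.101) and Sox11 (1.31, adjusted p = 0.121) no longer passed. With only mice of at least 3 motor neuron nuclei, adjusted p was 0.0159 for Gap43, 0.187 for Vgf and 0.115 for Sox11. edgeR and DESeq2 called all 3, and without the single nucleus that held the most UMIs of the gene Gap43 (2.51, adjusted p = 0.0107), Vgf (2.62, adjusted p = 0.0185) and Sox11 (1.23, adjusted p = 0.0835) were still called.

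In single nuclei, the members were found together more often in SOD1G93A motor neurons. A WT motor neuron nucleus held UMIs of a median of 3 of the 9 members and a SOD1G93A nucleus of 5. At least 5 members were found in 4 and 2 WT nuclei (5 and 6 members) and in 6, 4 and 4 SOD1G93A nuclei (5, 6 and 7 members). Depth moved with this: the median nucleus had 43895 UMIs in WT and 60146 in SOD1G93A mice. Nuclei are not replicates, and no test was made over them.

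With every nucleus thinned to 10000 UMIs, which all 67 reach, Gap43 was found in 2 of 44 WT nuclei (4.55%) and 8 of 23 SOD1G93A nuclei (34.8%, exact 95% interval 16.4 to 57.3). Unthinned, these were 15 and 17 nuclei. Free RNA in the droplets gives UMIs to cells that do not make a gene, and oligodendrocytes, thinned alike, had Gap43 in 22.1% of WT and 23.9% of SOD1G93A nuclei, so the lower WT share in motor neurons is not read as expression, and the interval of the SOD1G93A share also holds the oligodendrocyte share. All intervals here cover counting error over nuclei only, and nuclei of 1 mouse are not independent. Vgf was found in 5 WT nuclei (11.4%) and 10 SOD1G93A nuclei (43.5%, 23.2 to 65.5), against 8.90% and 3.52% of oligodendrocytes. For Jun there were 1 WT nucleus (2.27%) and 6 SOD1G93A nuclei (26.1%, 10.2 to 48.4), against 5.34% and 6.34% of oligodendrocytes. In astrocytes, thinned alike, Jun was in 8 of 76 WT and 22 of 73 SOD1G93A nuclei, and Vgf in 8 and 16. Endothelial nuclei had Jun in 66.7% and 61.9%, and Vgf in 4.60% and 4.76%. Nuclei labelled microglia had Jun in 7.41% and 4.17%, and Vgf in 7.41% and 15.3%. A higher SOD1G93A share of Jun or Vgf is therefore not particular to motor neurons.

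Atf3 after thinning was in 0 of 44 WT nuclei, which allows a share of nuclei with a UMI of up to 6.82% by the floor of 3 counts (exact upper limit 8.04%), and in 3 SOD1G93A nuclei (13.0%, 2.78 to 33.6), against 0.356% of WT oligodendrocytes. Sox11 was in 13 and 10 nuclei, or 29.5% and 43.5%, against 8.19% and 7.75% of oligodendrocytes. It was in 17.1% and 16.4% of astrocytes and in 16.4% and 16.6% of other neurons, but in 11.1% and 30.6% of nuclei labelled microglia. Oligodendrocytes had median depths of 6262 UMIs in WT and 5299 in SOD1G93A mice, and only the 281 and 142 nuclei with 10000 UMIs or more entered.

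**Figure D2:**
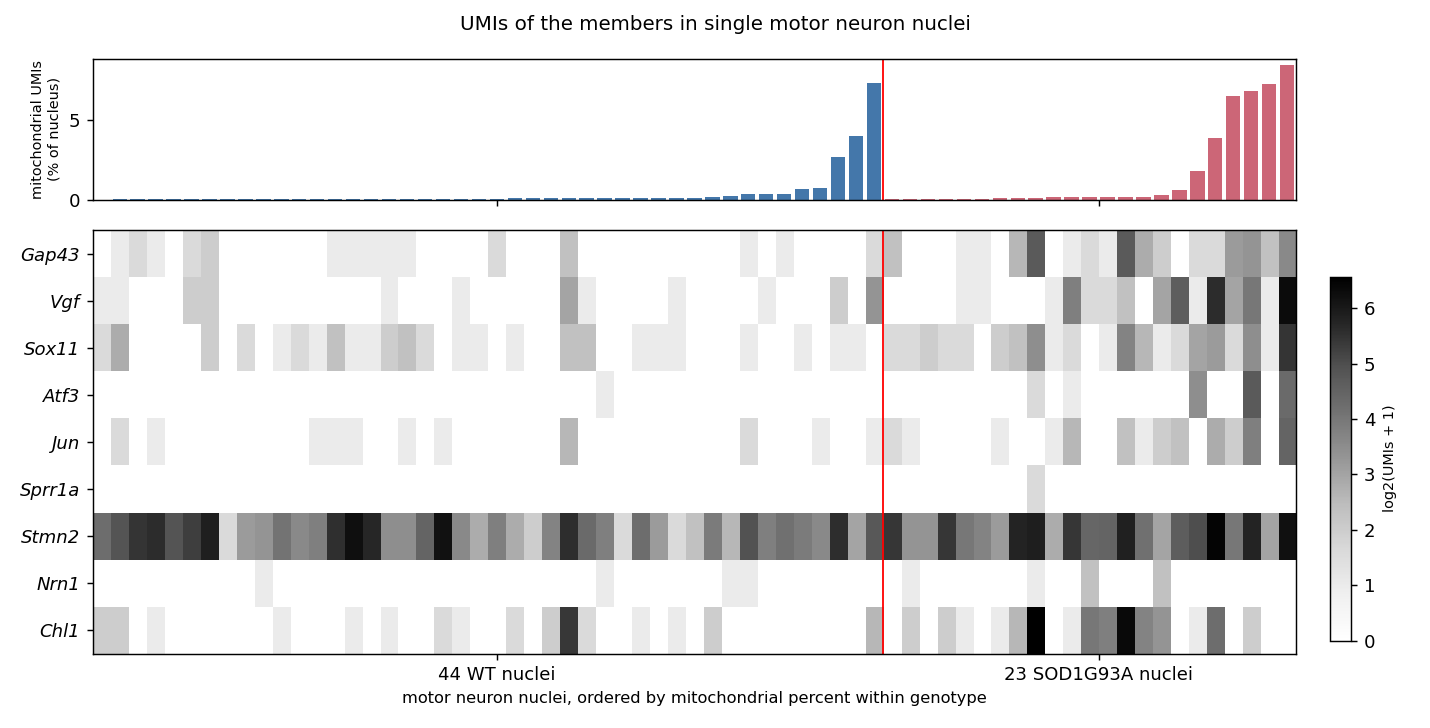
Each column is 1 motor neuron nucleus, 44 WT left of the red line and 23 SOD1G93A right of it, ordered by the percent of its UMIs that were mitochondrial (bars, top), and the grey scale gives log2(UMIs + 1) of each gene. In SOD1G93A mice the darkest Vgf, Atf3, Jun and Sox11 cells lie among the 6 nuclei over 1% at the right, while the darkest Gap43 and Chl1 cells lie to their left.

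The share of mitochondrial UMIs, a sign of cytoplasm left around a nucleus or of its quality, moved with several members. It was above 1% in 3 of 44 WT nuclei and in 6 of 23 SOD1G93A nuclei, with medians of 0.0693% and 0.157%. The 6 SOD1G93A nuclei held 54 of the 57 Atf3 UMIs, 150 of the 205 Vgf UMIs, 71 of the 123 Sox11 UMIs and 43 of the 65 Jun UMIs, but 36 of the 110 Gap43 UMIs and 22 of the 259 Chl1 UMIs. The 3 WT nuclei held 0 Atf3, 12 Vgf, 2 Sox11, 1 Jun and 2 Gap43 UMIs.

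Among the nuclei of up to 1%, Gap43 was at 9.54 CPM in WT and 66.8 CPM in SOD1G93A motor neurons. Vgf was at 8.67 and 49.7 CPM, Sox11 at 20.8 and 47.0 CPM, Jun at 6.94 and 19.9 CPM, and Atf3 at 0.434 and 2.71 CPM. With the nuclei above 1% left out of the sums, none of Gap43, Vgf and Sox11 passed the filter on low counts and 5 genes in all were called. With no filter, Gap43 (1.82, adjusted p = 0.0361) and Vgf (1.72, adjusted p = 0.0430) were called, at a background of 1.32% called higher and a median over all genes of 0.39, whereas Sox11 (0.46, adjusted p = 0.567), Jun (0.94, adjusted p = 0.322) and Atf3 (1.34, adjusted p = 0.176) were not. These p values also rest on a spread shared over genes. The part of mitochondrial or cytoplasmic content in the rise of Sox11, Jun and Atf3 was not tested beyond this.

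A few nuclei carried the transcription factors together. In the SOD1G93A male of pool A, a nucleus of 60213 UMIs and 8.45% mitochondrial UMIs held 78 Vgf, 43 Sox11, 21 Jun, 19 Atf3 and 11 Gap43 UMIs, and 68 of Ecel1, an endopeptidase induced in injured motor neurons. A second nucleus of that mouse, of 83107 UMIs and 6.86%, held 25 Atf3, 15 Vgf, 13 Jun, 10 Sox11 and 9 Gap43 UMIs. Both carried motor neuron markers, with 23 and 68 UMIs of Slc5a7.

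Other nuclei split the response. In the SOD1G93A male of pool B, a nucleus of 38700 UMIs had 10 Atf3 and 7 Sox11 UMIs but 0 of Jun. In the SOD1G93A female of pool A, a nucleus of 98620 UMIs had 48 of the mouse's 50 Vgf UMIs. In the SOD1G93A male of pool C, 2 nuclei of 60146 and 42792 UMIs had 25 Gap43 UMIs each with 94 and 80 of Chl1. These 2 carried 0 and 1 UMIs of Chat and mitochondrial shares of 0.098% and 0.184%, so they lay at the edge of the motor neuron label by that marker. Without this mouse Gap43 was still called in motor neurons (2.31, adjusted p = 0.0613).

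The design held females and males of both genotypes, and the sexes were compared within motor neurons. None of the 5 members tested was called between females and males, where 0.117% of genes were, or for a difference of the genotype effect between the sexes, where 0.0586% were. The lowest of the members' adjusted p values was 0.921 for sex and 0.954 for the interaction. The interaction of Sox11 alone had an unadjusted p under 0.05. Its genotype effect was 2.10 on the log2 scale in males and 0.80 in females (difference 1.30, SE 0.626, adjusted p = 0.954). For Gap43 the effects were 2.60 in males and 2.71 in females, and for Vgf 2.87 and 3.37. Within males Gap43 (adjusted p = 0.0318), Vgf (0.0336) and Sox11 (0.00874) were called, where 1.97% of genes were, and within females none of the 5 was, where 0.0391% were. Leaving out the SOD1G93A male of pool A ended all 3 calls in males. So did leaving out the WT or the SOD1G93A male of pool C for Gap43, and for Vgf each of these, the WT male of pool A and the SOD1G93A female of pool B. Vgf in males was also not called by edgeR (adjusted p = 0.307) or DESeq2 (0.371), and in females it was called without the WT male of pool B (0.0171). SOD1G93A females gave 7 nuclei and males 16. The size of a difference that could be detected was not tested, so the lack of a call is not read as likeness of the sexes.

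In WT mice, motor neurons stood apart from the other neurons of the cord in most members. Stmn2 was higher in motor neurons by 1.55 on the log2 scale (SE 0.134, adjusted p = 6.24e-06) and Jun by 1.41 (SE 0.304, adjusted p = 0.00462). The Jun value rests on 17 UMIs in WT motor neurons. Its WT median there was 5.31 CPM, against 5.38 CPM in oligodendrocytes and 2.67 CPM in other neurons. In thinned nuclei Jun was in 2.27% of WT motor neurons (exact 95% interval 0.0575 to 12.0) and 3.05% of other neurons. That share rests on 1 nucleus and cannot decide, so the Jun call is not read as a trait of healthy motor neurons. Gap43 was lower by 3.25 (log2 difference -3.25, SE 0.341, adjusted p = 2.76e-05), as were Nrn1 (-3.21, SE 0.392, adjusted p = 8.92e-05) and Chl1 (-3.26, SE 0.416, adjusted p = 0.000127). Vgf (-0.40, adjusted p = 0.458) and Sox11 (0.02, adjusted p = 0.962) were not called, and Atf3 and Sprr1a were too sparse to test. Of 12736 genes tested in this comparison, 17.1% were called higher in motor neurons and 15.6% lower, so calls were common and 5 of 7 members passed. Every call held under each alternative run.

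The levels by type put these values in order. Gap43 in WT mice was highest in the nuclei labelled Schwann and meningeal, with a median of 149 CPM (73.1 to 202), then in neurons at 98 CPM (90.3 to 99.9), OPCs at 62.2 CPM, nuclei labelled microglia at 60.02 CPM, astrocytes at 35.8 CPM and oligodendrocytes at 32.7 CPM. Motor neurons, at 10.2 CPM (0 to 16.7), came ninth of 10 types. Neurons exceeded OPCs in 6 of 6 mice, whereas OPCs and nuclei labelled microglia, and astrocytes and oligodendrocytes, were not in a constant order, with 3 of 6 mice each way. In SOD1G93A motor neurons the median of Gap43 was 48.2 CPM, still below the WT level of other neurons.

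Stmn2 followed another order. Its median in WT mice was 470.4 CPM under the Schwann and meningeal label, 379.5 CPM in motor neurons and 142 CPM in neurons, and motor neurons exceeded neurons in 6 of 6 mice. Chl1 was highest in astrocytes, at 588 CPM, followed by neurons at 237 CPM, and motor neurons came last at 14.2 CPM. Jun was highest in endothelial cells, at 145 CPM (77.5 to 264), above the next type in 6 of 6 mice, and Atf3 also had its highest WT median there, at 6.19 CPM.

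Sox11 in WT mice was at 20.8 CPM in neurons and 18.9 CPM in motor neurons, and Vgf at 15.5 and 10.3 CPM. Among the other neurons, sorted by the authors into sub-types by position and transmitter, the ventral cholinergic cells that are not motor neurons were the highest in Gap43 (176 CPM), Chl1 (457 CPM), Sox11 (37.8 CPM) and Stmn2 (211 CPM). They exceeded the next sub-type in 6 of 6 mice for Chl1, but in only 4, 4 and 3 of 6 for Gap43, Sox11 and Stmn2. Dorsal excitatory neurons had the most Nrn1 (50.7 CPM, above the ventral excitatory neurons at 42.0 CPM in 6 of 6 mice), and dorsal inhibitory neurons the most Vgf (29.8 CPM). Ventral inhibitory neurons had the least Gap43, at 34.2 CPM.

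**Figure D3:**
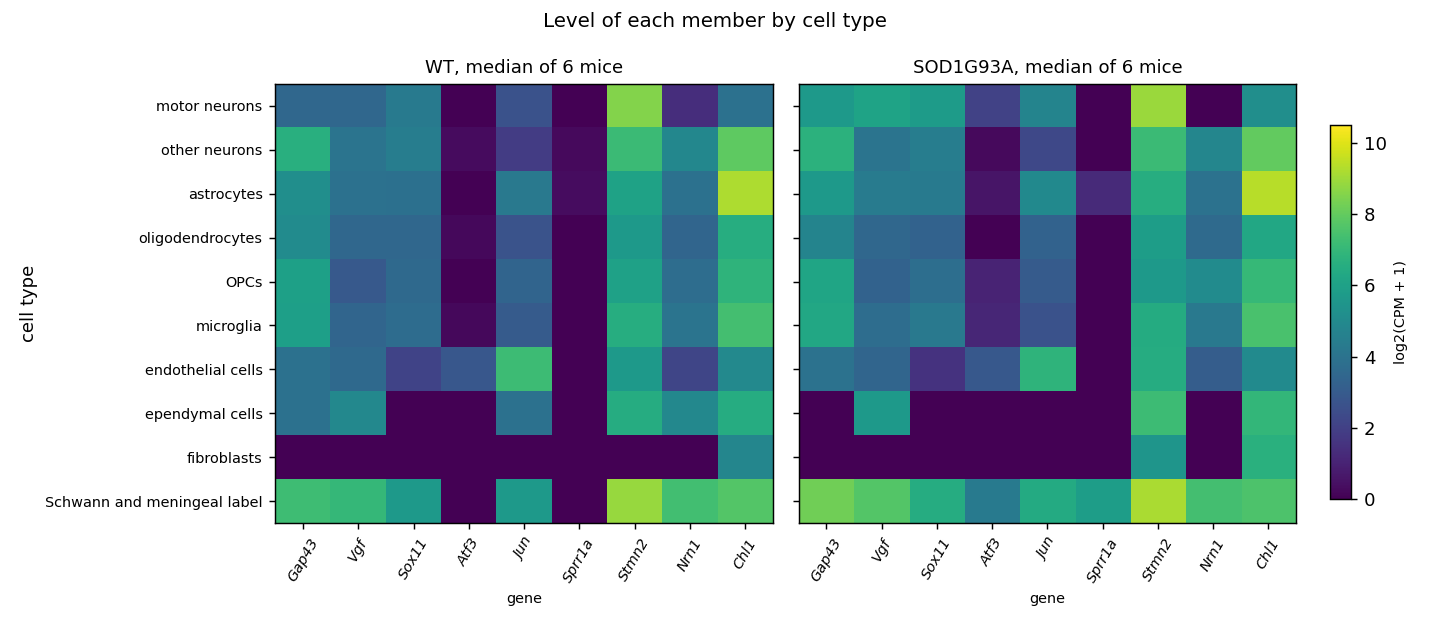
Median level over 6 mice of each gene in the 10 cell types (5 mice for WT ependymal cells and for fibroblasts of both genotypes, which 1 mouse lacked), in WT (left) and SOD1G93A mice (right), as log2(CPM + 1), with brighter colours for higher levels. In motor neurons Gap43 stands at 10.2 CPM in WT and 48.2 CPM in SOD1G93A mice and Vgf at 10.3 and 66.8 CPM, and Stmn2 is bright in motor neurons of both genotypes.

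The genes closest to each tested member over 19 WT groups (10 cell types and 9 sub-types), among 15915 genes, were found by the correlation of mean log2(CPM + 1). This is a description, since the groups share libraries and depth. Nearest to Gap43 were Ebf3 (Pearson r = 0.949), B230209E15Rik (0.946) and Camk2a (0.945), a kinase of excitatory synapses. Stmn2 was nearest to Eno2, the neuronal enolase (0.971), and Sox11 to L1cam, the adhesion molecule of growing axons (0.967). Vgf was nearest to Nme7 (0.909) and Chl1 to Sema4a (0.933).

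Outside motor neurons, few members were called. In the other neurons, 0 of 7 members tested were called by limma and 0 had an unadjusted p under 0.05, with Gap43 at 0.07 on the log2 scale (SE 0.0764), Sox11 at -0.12 (SE 0.0897) and Stmn2 at -0.03 (SE 0.0579). Over the 9 neuron sub-types, 0 of 47 tests of members were called and 4 had an unadjusted p under 0.05, at a background of 0.0252% of tests called and 4.54% with such a p. The 4 were Jun in dorsal excitatory neurons (0.72, adjusted p = 0.576), Nrn1 in neurons of unclear sub-type (0.40, adjusted p = 0.884), and Sox11 in ventral cholinergic (-0.73, adjusted p = 0.996) and ventral excitatory neurons (-0.45, adjusted p = 0.999). These Sox11 values have the opposite sign to that in motor neurons.

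In astrocytes, where 2.29% of 9347 genes were called, none of the 7 members tested was, with Gap43 at 0.65 (SE 0.218, adjusted p = 0.176) and Sox11 at 0.54 (SE 0.267, adjusted p = 0.381). Both genes had the higher level in the SOD1G93A mouse in 6 of 6 pairs of the same sex and pool. Sox11 ran from 10.3 to 16.1 CPM in WT and from 16.2 to 49.4 CPM in SOD1G93A mice, and Gap43, whose genotypes overlapped, from 25.7 to 43.7 and from 36.2 to 104 CPM. How many of all astrocyte genes do the same was not counted, so the pairs and ranges are no support by themselves. In astrocytes neuron markers had medians of 1388 CPM in WT and 1693 CPM in SOD1G93A mice, and oligodendrocyte markers of 1479 and 2031 CPM. Their part in these levels was not tested. Gap43 there passed when the SOD1G93A female of pool A was left out (0.79, adjusted p = 0.0464). Over the 7 other cell types, the neurons above included, 0 of 26 tests of members were called and 4 had an unadjusted p under 0.05, at a background of 0.0388% called and 5.33% with such a p. They were Stmn2 in endothelial cells (0.79, adjusted p = 0.980), Gap43 (0.37, adjusted p = 0.435) and Vgf (0.68, adjusted p = 0.464) in nuclei labelled microglia, which carry mostly neuron and oligodendrocyte markers, and Jun in oligodendrocytes (0.83, adjusted p = 0.9997). No member could be tested in ependymal cells or fibroblasts.

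**Figure D4:**
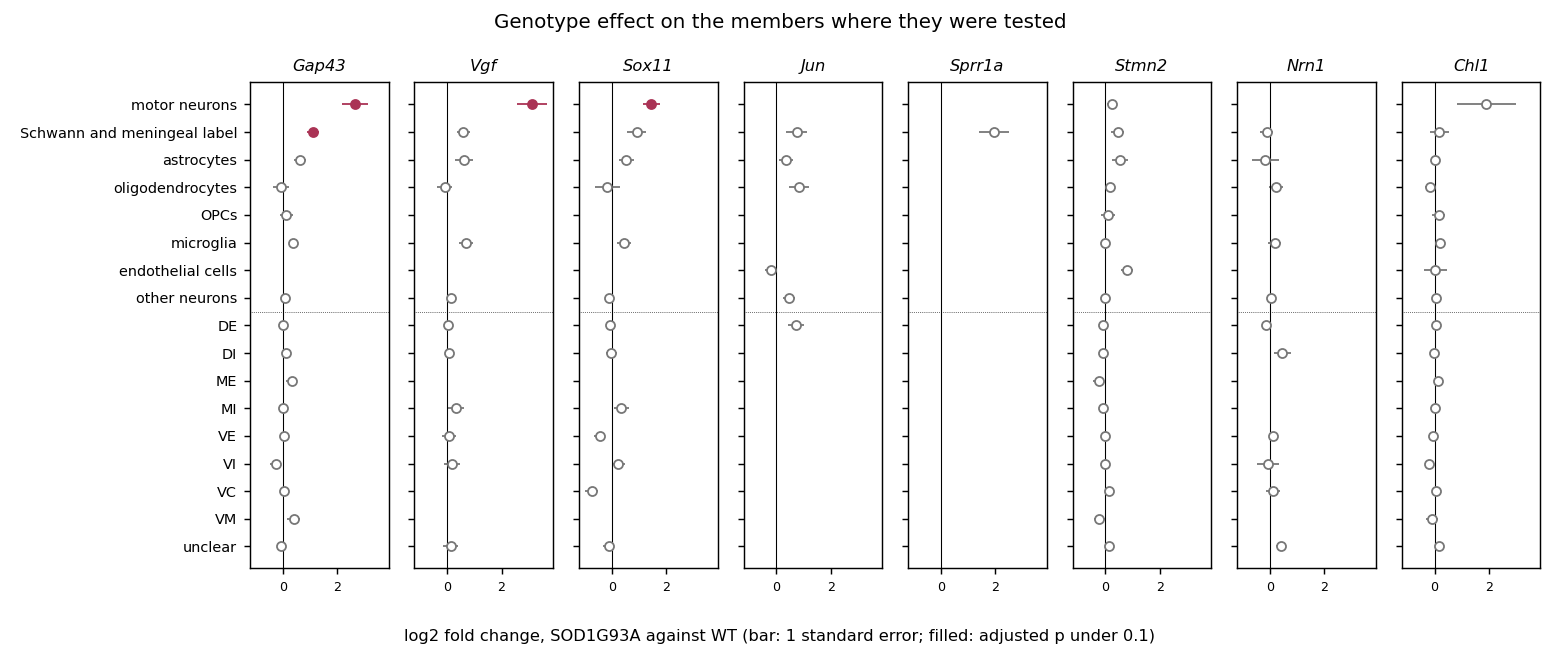
Log2 fold change of SOD1G93A against WT for each tested member, with bars of 1 SE, in motor neurons, in the other cell types and, below the dotted line, in the neuron sub-types (D, M and V for dorsal, mid and ventral, then E, I, C and M for excitatory, inhibitory, cholinergic and mixed). Filled points, those called at an adjusted p under 0.1, are Gap43, Vgf and Sox11 in motor neurons and Gap43 under the Schwann and meningeal label.

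The only other call of a member was Gap43 in the group that the authors labelled Schwann and meningeal, with 348 WT and 683 SOD1G93A nuclei of low depth (medians of 1344.5 and 1722 UMIs). Its markers went against the label. Prx, a gene of myelinating Schwann cells, had 0 UMIs in WT and 7 in SOD1G93A nuclei, and the fibroblast gene Col1a1 had 1 and 2. Snap25, a synaptic protein of neurons, was found in 316 of the WT and 635 of the SOD1G93A nuclei, with 2624 and 8314 UMIs. The summed level of the 4 neuron markers ran from 4494 to 6563 CPM in WT and from 4034 to 6323 CPM in SOD1G93A mice, and that of the 4 oligodendrocyte markers from 4553 to 6698 and from 2496 to 7626 CPM, against 33.8 to 277 and 56.8 to 191 CPM for the 3 Schwann cell markers. The group is therefore called by its label only.

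Under this label Gap43 rose by 1.12 on the log2 scale (SE 0.228, adjusted p = 0.0571), the only one of 8 members tested to be called, where 0.036% of 5562 genes were. WT females had 169, 202 and 73.1 CPM in pools A, B and C and WT males 152, 138 and 146 CPM. SOD1G93A females had 227, 174 and 143 CPM and the males 751, 582 and 365 CPM. The 3 males lay above every WT mouse, and the females overlapped with WT mice. With edgeR the adjusted p was 0.160, without the pool term 0.812, and 7 of the 12 mice, left out 1 at a time, ended the call: the WT females of pools A and C, the WT males of pools A and B, the SOD1G93A females of pools A and C and the SOD1G93A male of pool A, with adjusted p up to 0.887. Without the nuclei of at least 10000 UMIs the fold change was 0.57 (adjusted p = 0.999).

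The other members under this label were not called, among them Sprr1a (1.95, SE 0.551, adjusted p = 0.604), Sox11 (0.91, SE 0.344, adjusted p = 0.999) and Vgf (0.60, SE 0.247, adjusted p = 0.999). Sprr1a had 2 UMIs in WT and 272 in SOD1G93A nuclei, a ratio of 40.9 (exact 95% interval 11.2 to 339, counting error only). By mouse it was at 0, 3.88 and 0 CPM in WT females, 0, 0 and 14.9 CPM in SOD1G93A females, 5.06, 0 and 0 CPM in WT males and 97.1, 406 and 97.7 CPM in SOD1G93A males. Without the SOD1G93A male of pool B, which held 124 of the 272, the ratio was 25.5 (6.93 to 212). Both Sprr1a ratios rest on 2 WT UMIs, under the floor of 3 counts, so only their intervals are read. Atf3 had 0 UMIs in 729530 in WT, which allows up to 4.11 CPM over the 6 mice, and 99 in SOD1G93A nuclei, at 40.8 CPM at least 9.92-fold higher, or at least 5.85-fold higher without that male. These bounds cover counting error only, over nuclei of unlike depth. In nuclei under 10000 UMIs, Atf3 had 0 UMIs in 559820 in WT and 11 in 1421060 in SOD1G93A mice. By mouse, Atf3 was at 0, 16.6 and 5.97 CPM in SOD1G93A females and at 34.7, 157 and 22.1 CPM in SOD1G93A males.

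The genotype effect under this label was also fitted within each sex. Within males Gap43 (1.93, SE 0.321, adjusted p = 0.00215) and Sprr1a (3.87, SE 0.701, adjusted p = 0.00637) were called, where 0.0719% of genes were. Sprr1a reached the level the filter asks for (51.1 CPM) in the 3 SOD1G93A males and no other mouse, so it entered these tests only through them. Within females they stood at 0.31 and 0.02 and no member was called, where 0.018% were. The difference of these effects did not pass for any member, at a background of 0% called, with an adjusted p of 0.752 for Gap43 and for Sprr1a. In the contrast of females with males averaged over genotypes, Sprr1a was lower in females (-2.92, SE 0.551, adjusted p = 0.00959), the only member called for sex, where 0.108% of genes were. Among WT mice only 1 female and 1 male had a UMI of it, 1 each, so no sex difference was seen in WT. The call for sex was lost with edgeR (adjusted p = 0.999), with DESeq2 (0.9997) and without the pool term (0.998), and with 5 of the 12 mice left out in turn (WT males of pools B and C, SOD1G93A females of pools A and B and the SOD1G93A male of pool A). Among males, Gap43 was not called without the pool term (0.334), without the WT male of pool A (0.510) or without the nuclei of at least 10000 UMIs (0.999). Sprr1a among males was not called by DESeq2 (0.9998), without the pool term (0.977), or without any 1 of the 3 WT males (0.332, 0.854 and 0.351 for pools A, B and C) or the SOD1G93A males of pools A (0.138) and B (0.152).

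**Figure D5:**
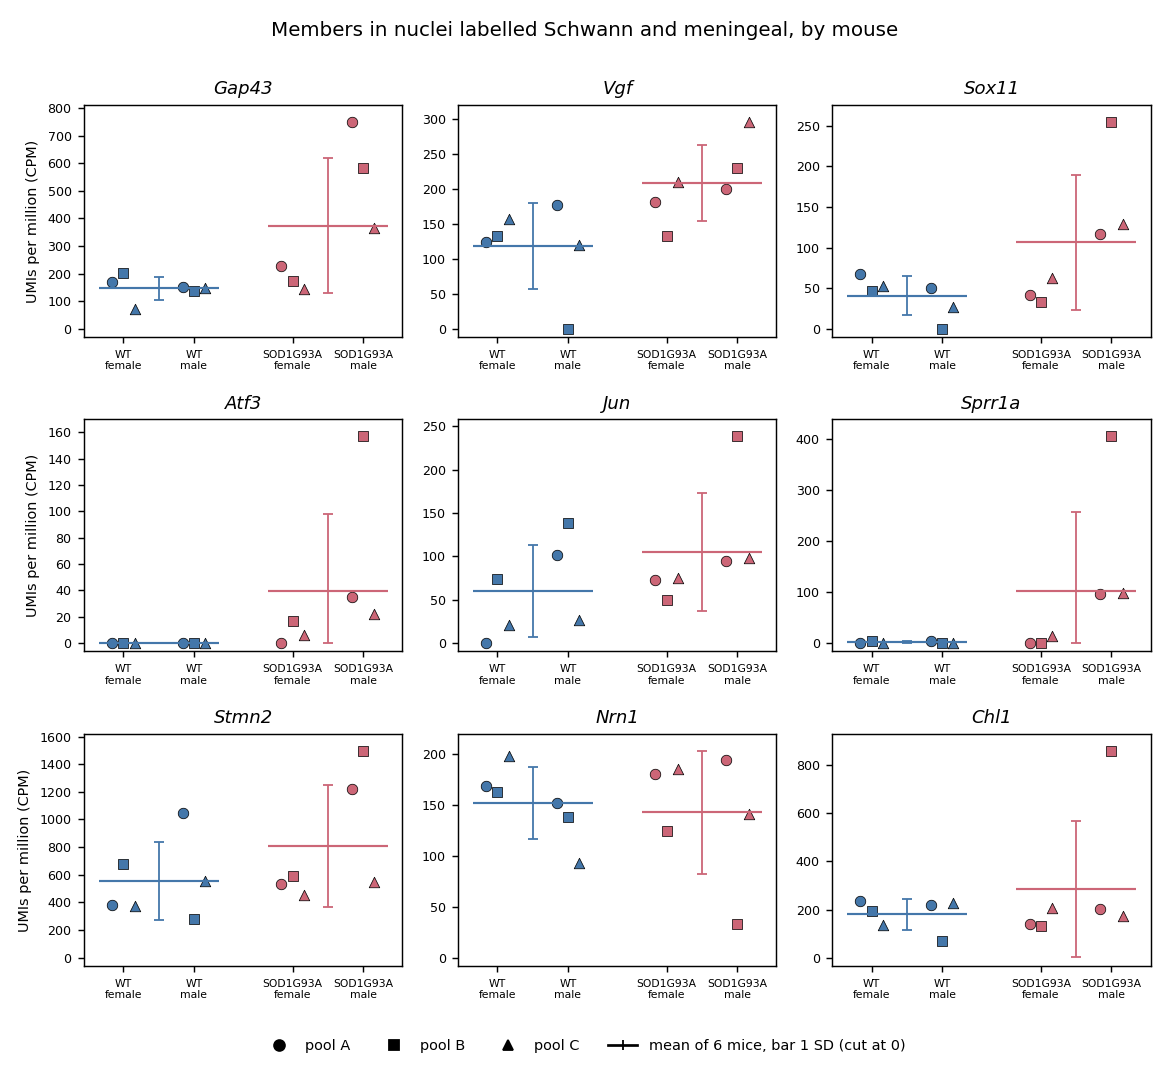
CPM of the 9 genes in the nuclei labelled Schwann and meningeal, 1 point per mouse with the shape giving the pool, and lines with bars giving the mean and 1 SD, cut at 0, of 6 mice per genotype. The 3 SOD1G93A males are the highest for Gap43, and the male of pool B stands alone for Atf3, Sprr1a, Jun and Chl1.

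These UMIs came from few nuclei. The 25 SOD1G93A nuclei of at least 10000 UMIs under this label held 946 of the 1274 Gap43 UMIs, 243 of the 272 Sprr1a UMIs, 204 of the 286 Sox11 UMIs and 88 of the 99 Atf3 UMIs. The 8 WT nuclei of that depth held 24 Gap43, 1 Sprr1a, 3 Sox11 and 0 Atf3 UMIs. In the shallower nuclei, 340 in WT and 658 in SOD1G93A mice, Atf3 had 0 and 11 UMIs and Sprr1a 1 and 29.

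The nucleus with the most UMIs of Sprr1a lay here, in the SOD1G93A male of pool B. It had 185932 UMIs, of which 2.75% were mitochondrial, and held 119 Sprr1a, 100 Gap43, 61 Sox11, 56 Jun, 47 Vgf, 42 Atf3, 392 Stmn2 and 244 Chl1 UMIs. It also held 134 Slc5a7, 85 Prph and 19 Chat UMIs, motor neuron markers, and 0 of Prx. In the SOD1G93A male of pool A, a nucleus of 46454 UMIs held 396 Gap43, 327 Stmn2, 44 Sprr1a and 30 Atf3 UMIs, and another of 31304 UMIs held 236 Gap43 and 47 Sprr1a UMIs. Doublets of nuclei from 1 mouse are not marked in the data, and their part in these deep nuclei was not tested.

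Over all labels, Atf3 was found in 58 WT nuclei with at most 2 UMIs each and in 63 SOD1G93A nuclei with up to 42, and Sprr1a in 27 WT nuclei with at most 2 and in 52 SOD1G93A nuclei with up to 119. Nuclei with at least 3 UMIs of either gene, a limit chosen after the values were seen, numbered 0 of 8841 in WT and 11 of 5821 in SOD1G93A mice. They came from 4 mice, the 3 SOD1G93A males and the SOD1G93A female of pool B. By label 6 were Schwann and meningeal, 3 motor neuron, 1 neuron and 1 microglia. The nucleus labelled microglia was the female's, and held 86954 UMIs with 4 of Atf3, 28 of Snap25 and 8 of Cx3cr1, a microglia marker.

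The wider injury and regrowth response was read from 6 lists of other genes. In motor neurons 2 of the 45 tested genes of these lists were called, both higher, where 3.07% of all genes were called in either direction, so the count is not read as a result about the lists. The median over all genes was 0.00 on the log2 scale, and 1 of 7 tested injury transcription factors was called, Klf7 (0.76, SE 0.196, adjusted p = 0.0632), a factor of axon growth in development, with a list median of 0.45. Crem (0.76, adjusted p = 0.195) and Stat3 (0.45, adjusted p = 0.279), which relays cytokine signals after injury, were not called. Of 13 receptors and adhesion molecules, 1 was called, L1cam (0.98, SE 0.279, adjusted p = 0.0860), a close relative of Chl1, with a list median of 0.02. Klf7 passed in 6 of 14 other settings and with 6 of 12 mice left out in turn, and L1cam in 3 of 12 and 1 of 12.

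The remaining lists held no called gene in motor neurons by limma. Over all genes tested in motor neurons, 15.9% had an unadjusted p under 0.05. Of 8 kinases and scaffolds of the DLK and JNK pathway, 1 had an unadjusted p under 0.05, Map3k12, which encodes DLK (0.61, SE 0.281, adjusted p = 0.282), and the list median was 0.05. Of 8 growth cone and cytoskeletal genes none did, the median was -0.20, and Basp1, a partner of Gap43 at the membrane, was at -0.55 (SE 0.370, adjusted p = 0.508). Of 7 injury effectors 4 did, with a median of 0.59: Ecel1 (1.76, SE 0.774, adjusted p = 0.301), the small heat-shock protein Hspb1 (1.06, adjusted p = 0.239), Uchl1 (0.87, adjusted p = 0.195) and Rtn4 (0.59, adjusted p = 0.169). Ecel1 reached the level of the filter in no WT mouse, so it entered the test only through SOD1G93A mice. Of its 150 SOD1G93A UMIs, 98 lay in the 6 nuclei over 1% mitochondrial UMIs, and 68 in 1 of them. Whether other list genes entered in that way was not checked, so the count of 4 and the list median are no support by themselves. The 2 secreted peptides tested, Chga and Scg5, were at 0.16 and 0.43. Of the receptors, Ret, the signalling receptor for GDNF, was at 0.78 (adjusted p = 0.156), while the adhesion molecules Cntn6 (-0.51, adjusted p = 0.147) and Nrcam (-0.45, adjusted p = 0.175) and the BDNF receptor Ntrk2 (-0.38, adjusted p = 0.262) were on the lower side.

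In astrocytes 5 of the 63 tested genes of these lists were called, all higher, where 2.29% of all genes were called, 129 higher and 85 lower. Oligodendrocyte markers in astrocytes had a median of 1479 CPM in WT (1090 to 1722) and 2031 CPM in SOD1G93A mice (1578 to 3037), and neuron markers 1388 and 1693 CPM, and their part was not tested. The 5 genes were Egr1 (1.93, adjusted p = 0.0100) and Stat3 (0.67, adjusted p = 0.0201) of the transcription factors, the hyaluronan receptor Cd44 (0.99, adjusted p = 0.00537), Hspb1 (1.502, adjusted p = 0.0166) and Marcks (0.49, adjusted p = 0.0918). In oligodendrocytes 1 of 59, Stat3, was called (0.87, adjusted p = 0.0156), where 0.0475% of genes were. No gene of the lists was called in the remaining cell types or in any neuron sub-type.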

How the data were processed

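The deposited counts are UMIs per gene and nucleus, which the authors made with CellRanger (version 3.1, STAR 2.5.1b, in the submitters' processing notes) on a pre-mRNA version of mm10, without normalization. The authors assigned nuclei to mice by hashtag in Seurat, removed nuclei with under 200 genes or over 10% mitochondrial UMIs, and then removed the mitochondrial genes from the table. The percent of mitochondrial UMIs and the cell types are those deposited by the authors. Their integrated, normalized table was not used.

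UMIs were summed per mouse and type. After the methods of the study, filterByExpr removed sparse genes, and the rest were tested with TMMwsp factors and limma's voom, with terms for the 4 groups and for the pool. The minimum count of 10 and the robust option of eBayes are not stated by the study and were set here (limma 3.58.1, edgeR 4.0.16, R 4.3.3). Benjamini-Hochberg adjustment was made within a type. A call is an adjusted p under 0.1. P-values measure the spread between mice. In the fits with no filter that spread was shared over genes for nearly all members. The spread of each such gene itself did not enter those p values. WT motor neurons were compared with other neurons with a term per mouse. DESeq2 (1.42.0) and edgeR's quasi-likelihood test were alternatives. The fits were also run on simulated counts, with results not given here, so this is no support for the calls.

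The pool pairs the mice by design. In motor neurons the deviations from the group means had a median r of 0.0131 between mice of 1 pool and 0.00335 between pools, with 2 of 18 same-pool pairs over 0.1. Under the Schwann and meningeal label these were 0.0494, -0.0495 and 6 of 18.

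Genes named are the 9 members, genes of the 6 lists (every called one and others of the list), the genes closest to each tested member, Sod1 and cell type markers. The members and lists were chosen with earlier results of these data known. The removal of single nuclei, of nuclei over 1% mitochondrial UMIs and of deep nuclei, and the combinations with no filter, were chosen after seeing the data. Thinning used 1 random draw. Positions of promoters are those of RefSeq on GRCm38.p6.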

Additional observations from a re-analysis of the deposited data

Results flagged for a closer look

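Among 36 groups of 6 mice (9 genes, 2 labels, 2 genotypes), 12 had 1 mouse far from the other 5 by Dixon's ratio at its 95% critical value. Chance gives about 1 in 20 for normally distributed values, which these sparse counts are not, so the number of flags is not read against that rate. Groups with mostly 0 values are flagged by any single count, and groups with only 0 values cannot be flagged.

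In motor neurons the mice that stood apart were the SOD1G93A male of pool C for Gap43 (189 CPM), Chl1 (654 CPM) and Sprr1a (6.50 CPM), the SOD1G93A male of pool A for Atf3 (108 CPM) and Jun (104 CPM), the WT male of pool A for Chl1 (97.4 CPM), and the WT male of pool B for Atf3 (1.54 CPM, from 1 UMI).

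Under the Schwann and meningeal label the SOD1G93A male of pool B stood apart for Atf3 (157 CPM), Jun (239 CPM), Chl1 (861 CPM) and Sprr1a (406 CPM), and the WT male of pool B was low for Vgf (0 CPM, in 14464 UMIs). In the former mouse 1 nucleus held 42 of the 48 Atf3 UMIs.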

How the results depend on the processing

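Of the 9 members, 3 were called in motor neurons. The count was 5 with no filter on low counts and 5 with nuclei thinned to 10000 UMIs and no filter, a fit in which 13.1% of all genes were called higher and in which Chl1 gained its call and Sox11 lost it. It was 1 without the pool as replicate block, 1 with mice of at least 3 motor neuron nuclei, and 0 with a minimum count of 30, with thinned nuclei, and without nuclei over 1% mitochondrial UMIs, since in these last 3 Gap43, Vgf and Sox11 fell under the filter. It ranged from 1 to 4 with each mouse left out. The 1 call in the other cell types became 0 with edgeR, without the replicate block and without the deep nuclei, and ranged from 0 to 1 with each mouse left out, ended by 6 mice (WT females of pools A and C, WT males of pools A and B, the SOD1G93A female of pool C and the SOD1G93A male of pool A; without the SOD1G93A female of pool A the call moved from Gap43 under the Schwann and meningeal label to Gap43 in astrocytes). No called value reversed its direction. Among values not called, Stmn2 in motor neurons went from 0.22 to -0.11 without nuclei over 1% mitochondrial UMIs, to -0.31 with no filter as well and to -0.02 without its top nucleus, and Sox11 of WT motor neurons against other neurons ran from -0.16 to 0.16 with each mouse left out. Without the block the male and sex calls under the Schwann and meningeal label were also lost, and Vgf in males.

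Of the genes called in motor neurons 46.5% were higher. This was 73.7% without scaling factors, which also shifted the median of all genes to 0.14, 35.9% with DESeq2 and 31.9% with edgeR. Single nuclei set several levels, and SOD1G93A females gave 2, 4 and 1 motor neuron nuclei. The cause of these changes was not tested.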
